A study of Mus musculus with 20 samples.

Results

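Interleukin 22, a cytokine of the interleukin 10 family, and cytokines of the interleukin 6 family act on the gut epithelium through the transcription factor STAT3, and 8 genes of that response are described here: the receptor subunits Il22ra1 and Osmr, Stat3 itself, its feedback inhibitor Socs3, the kinases Pim1 and Pim3, the nuclear cofactor Bcl3 and the fucosyltransferase Fut2. They are 8 of the 23020 genes with deposited values, and 5 of them (Stat3, Socs3, Pim1, Pim3 and Bcl3) were among the 9521 genes expressed highly enough to be tested. The 8 were matched by gene symbol. Pim1 was picked because its level was lower in crypts lacking Xiap from mice housed apart, so every value of that contrast is given here as a description, and the other 7 were added as genes of the same pathway.

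The study sequenced the 3' ends of poly(A) RNA, counted by molecular barcodes, in crypts of the small intestine from 20 C57BL/6 mice, crypts being the pits of the epithelium where stem cells and Paneth cells sit. The 4 groups were 5 co-housed Xiap-/- mice, 5 co-housed WT mice, 4 Xiap-/- mice housed apart and 6 WT mice housed apart. Xiap encodes an inhibitor of cell death that also takes part in innate immune signalling. Co-housing put both genotypes in the same cages for 4 weeks, and mice housed apart were kept with their own genotype. The labels name no cage, age, sex or deleted part of Xiap, and p-values measure only the spread between these libraries.

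Interleukin 22 is made mainly by innate lymphoid cells and T cells and binds a receptor of Il22ra1 and Il10rb on epithelial cells. The receptor-bound kinases Jak1 and Tyk2 then phosphorylate STAT3, which enters the nucleus and switches on genes of defence, repair and survival, among them Reg3b, Reg3g and Fut2, and its own brake Socs3. Oncostatin M and other cytokines of the interleukin 6 family reach STAT3 through Il6st, paired with Osmr for oncostatin M. Pim1 and Pim3 are serine/threonine kinases made after cytokine signals, and Bcl3 binds NF-kB subunits in the nucleus.

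In GENCODE M21 on build GRCm38, Il22ra1 spans chr4:135728172-135752140 on the plus strand and Osmr spans chr15:6813577-6874969 on the minus strand. Stat3 lies at chr11:100885098-100939540 and Socs3 at chr11:117966079-117970047, both on the minus strand. Pim1 lies at chr17:29490753-29496112 and Pim3 at chr15:88862186-88865726, both on the plus strand. Bcl3 spans chr7:19808462-19822770 and Fut2 spans chr7:45648591-45666394, both on the minus strand. All 8 are protein-coding. Stat3 shares 72 bases, its 3' end included, with Stat5a on the opposite strand, and since the strand used in counting is not given in the sources used here, its level may hold reads of Stat5a. Pim1 is overlapped by the antisense gene Gm26885 over 1173 bases and Bcl3 by Gm16175 and Gm16174, none of them at the 3' end.

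Promoter sequences were shown for the 3 members whose levels in Xiap-/- and WT crypts housed apart did not overlap, since STAT3 binds a palindromic motif near its targets. They run from 250 bases before to 50 bases after the transcript start in RefSeq (GRCm38.p6), 5' to 3' on the gene's strand, with any match to TTCNNNGAA, which is its own reverse complement, in capitals. Promoters of 7 of the 8 members were matched, Fut2 being the other. The Socs3 promoter (chr11:117969317-117969616, minus strand) is the 1 of the 7 with a match, 154 to 146 bases before the start. The Pim1 promoter (chr17:29490535-29490834, plus strand, the first of 2 RefSeq starts) and the Stat3 promoter (chr11:100939491-100939790, minus strand) hold none.
Socs3: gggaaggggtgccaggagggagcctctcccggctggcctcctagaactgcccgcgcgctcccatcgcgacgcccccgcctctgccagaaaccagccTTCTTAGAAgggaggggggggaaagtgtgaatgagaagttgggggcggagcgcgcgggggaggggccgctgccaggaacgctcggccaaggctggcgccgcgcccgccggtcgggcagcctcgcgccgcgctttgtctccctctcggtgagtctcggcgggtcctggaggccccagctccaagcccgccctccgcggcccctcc
Pim1: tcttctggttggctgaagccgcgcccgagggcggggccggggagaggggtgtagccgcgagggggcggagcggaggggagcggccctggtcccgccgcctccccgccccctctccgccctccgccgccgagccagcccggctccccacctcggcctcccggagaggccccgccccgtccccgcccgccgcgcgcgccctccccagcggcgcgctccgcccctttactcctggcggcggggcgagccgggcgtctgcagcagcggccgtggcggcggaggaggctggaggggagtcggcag
Stat3: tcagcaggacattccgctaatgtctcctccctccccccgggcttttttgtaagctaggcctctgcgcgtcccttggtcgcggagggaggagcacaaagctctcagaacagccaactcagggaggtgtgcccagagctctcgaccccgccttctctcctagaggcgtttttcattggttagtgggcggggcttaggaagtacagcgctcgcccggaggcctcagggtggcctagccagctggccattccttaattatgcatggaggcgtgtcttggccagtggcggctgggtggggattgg
The motif is in 8.3% of all 32851 RefSeq promoters of this length. A match is a description of the letters and shows no binding.

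All values below are the authors' normalized levels on a log2 scale, and a difference of 1 is a doubling only as far as the transformation, which is not given in the sources used here, keeps that scale at the level in question. Counts were not used, and sequencing depth is unknown. As a stand-in, the share of 1854 rare genes standing above their plateau was taken: it was 8.77 ± 2.77% in co-housed Xiap-/- libraries and 8.74 ± 1.47% in co-housed WT libraries, but 17.1 ± 10.5% in Xiap-/- libraries housed apart and 7.71 ± 3.69% in WT libraries housed apart (SD, n = 5, 5, 4 and 6). Xiap-/- housed apart replicate 2 stood out at 32.15%. The extraction text in the labels speaks of liver while all other labels give crypts, and Defa24, a Paneth cell defensin, stood at 14.17 on average. The Xiap transcript averaged 6.38 ± 0.10 in Xiap-/- crypts housed apart and 6.81 ± 0.17 in WT crypts housed apart (exact permutation test, two-sided, p = 0.00476, the smallest of 210 regroupings). Co-housed libraries labelled Xiap-/- averaged 6.62 ± 0.22 and co-housed WT libraries 6.67 ± 0.20 (exact permutation p = 0.683), so the transcript does not separate the genotypes there and genotype rests on the labels. Reads from 3' ends can lie outside a deleted part, in which case this level checks nothing.

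Pim1, a kinase that promotes survival and growth after cytokine signals, had a lower mean in the libraries labelled Xiap-/- in both housings. Among co-housed mice its level was 5.39, 5.40, 5.52, 5.41 and 5.40 in the 5 libraries labelled Xiap-/-, against 5.88, 6.18, 6.07, 5.75 and 5.51 in the 5 WT libraries. Of the 5 libraries labelled Xiap-/-, 4 sat within 0.02 of each other, and the groups touched at Xiap-/- replicate 3 and WT replicate 5. The mean was 5.43 ± 0.05 in libraries labelled Xiap-/- and 5.88 ± 0.26 in WT libraries (SD, n = 5 each), a difference of -0.45 ± 0.11 (SE, 95% interval -0.68 to -0.22). These mice were not used to pick Pim1. An exact permutation test of this value alone gave p = 0.0159 (two-sided, 252 regroupings). The permutation p lay between 0.00794 and 0.0238 with each of the 10 libraries left out in turn. That test was unplanned, was run for no other member and is not adjusted over genes. Over all 9521 genes Pim1 ranked 31st by p and did not pass (limma, Benjamini-Hochberg adjusted p = 0.105). It passed when only the co-housed groups were fitted (adjusted p = 0.018, with 142 genes passing) or with array quality weights (adjusted p = 0.0255, with 159 genes passing). In the rest of the 9 alternative settings Pim1 did not pass (limma adjusted p from 0.066 to 0.13). With each library left out in turn, 0 of 20 limma fits passed (adjusted p from 0.055 to 0.359).

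**Figure D1:**
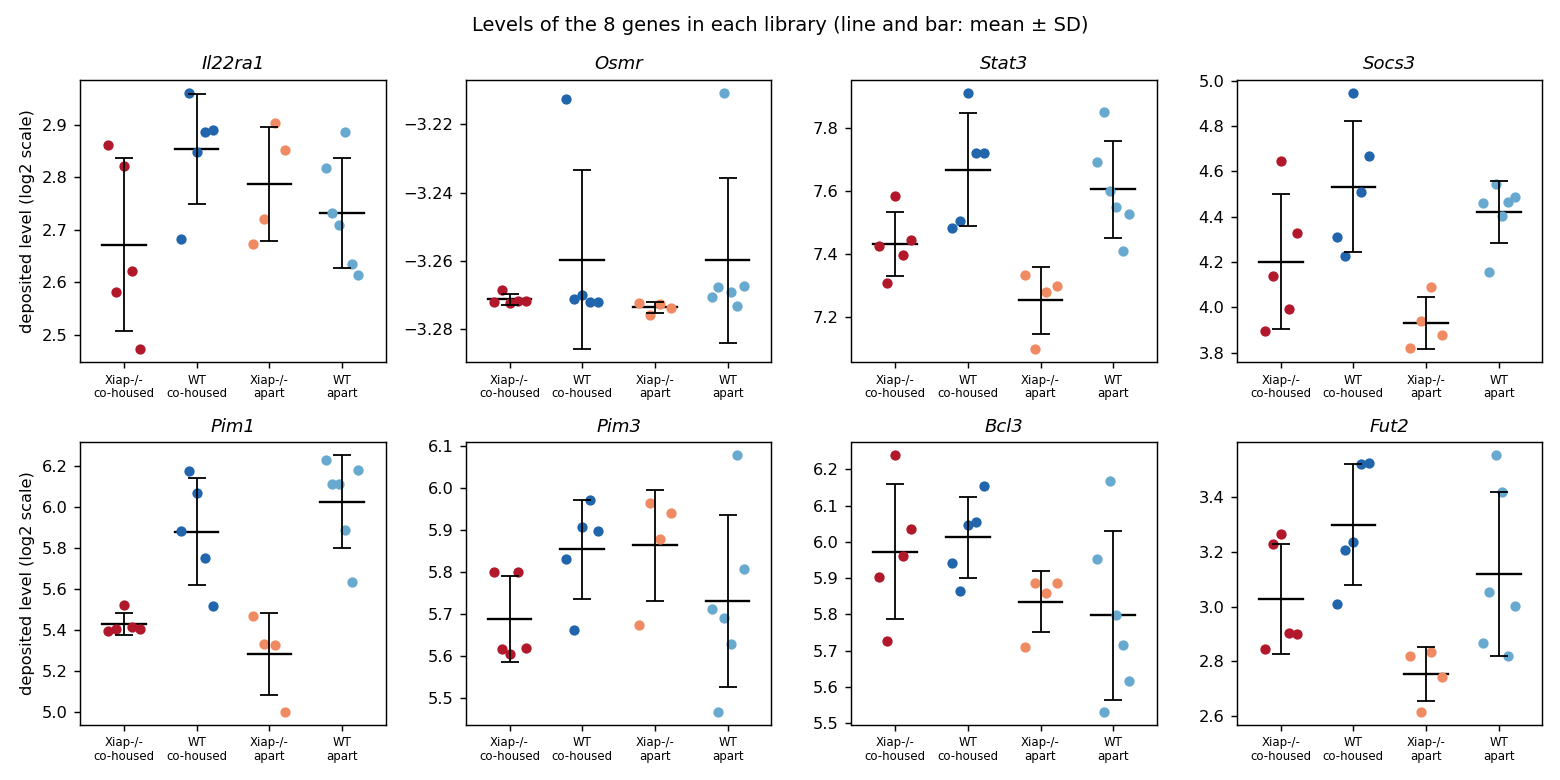
Deposited level (log2 scale) of each of the 8 genes in every library, 1 point a mouse, with the group mean as a line and the SD as a bar; panels have their own vertical scales. Pim1 in the 5 co-housed libraries labelled Xiap-/- sits between 5.39 and 5.52, against 5.51 to 6.18 in co-housed WT libraries, and Osmr spans less than 0.1 in all libraries.

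Among mice housed apart, the contrast Pim1 was picked on, its level was 5.47, 5.33, 5.32 and 5.00 in Xiap-/- libraries, against 6.23, 6.11, 6.11, 5.89, 5.63 and 6.18 in WT libraries. All 4 Xiap-/- libraries lay under all 6 WT libraries. The difference was -0.74 ± 0.12 (SE), and -0.76 without Xiap-/- replicate 2, the library with the high share of rare genes. With that share as a covariate it was -0.65 ± 0.14. Ordered by mean, Pim1 stood at 5.28 ± 0.20 in Xiap-/- crypts housed apart, 5.43 ± 0.05 in co-housed Xiap-/- crypts, 5.88 ± 0.26 in co-housed WT crypts and 6.03 ± 0.23 in WT crypts housed apart (SD). The neighbours of like genotype overlapped: co-housed minus housed apart was 0.15 ± 0.12 in Xiap-/- crypts and -0.15 ± 0.11 in WT crypts. The difference between the genotype differences, co-housed minus housed apart, was 0.29 ± 0.16, with an interval of -0.04 to 0.62. It shares the mice that Pim1 was picked on and is given without a test.

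Stat3, the transcription factor of the pathway, was measured in co-housed libraries labelled Xiap-/- at 7.43, 7.31, 7.59, 7.40 and 7.44, against 7.48, 7.50, 7.91, 7.72 and 7.72 in co-housed WT libraries. Of the 5 libraries labelled Xiap-/-, 4 were under every WT library, and replicate 3 overlapped. The difference of -0.24 ± 0.09 did not pass over all genes (limma adjusted p = 0.306). Housed apart, Stat3 was 7.34, 7.10, 7.28 and 7.30 in Xiap-/- libraries and 7.69, 7.85, 7.60, 7.55, 7.41 and 7.53 in WT libraries. These groups did not overlap, and the difference was -0.35 ± 0.10, or -0.30 without Xiap-/- replicate 2. With the share of rare genes as a covariate the Stat3 difference was -0.27 ± 0.116. Stat5a, which shares the 3' end of Stat3, differed by -0.09 ± 0.09 among co-housed mice and by -0.16 ± 0.09 housed apart, and its part in the Stat3 level was not tested.

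Socs3, which blocks the receptor kinases and so damps STAT3 signalling, was 3.90, 4.14, 4.65, 3.99 and 4.33 in co-housed libraries labelled Xiap-/-, against 4.31, 4.23, 4.95, 4.51 and 4.67 in co-housed WT libraries. The means differed by -0.33 ± 0.12 with overlapping groups, and the difference did not pass (limma adjusted p = 0.281). Housed apart, it was 3.82, 3.94, 4.09 and 3.88 in Xiap-/- libraries, against 4.46, 4.16, 4.54, 4.40, 4.47 and 4.49 in WT libraries. Every Xiap-/- library was under every WT library there, with a difference of -0.49 ± 0.13 that Xiap-/- replicate 2 did not move (-0.49 without it). With the share of rare genes as a covariate the Socs3 difference was -0.53 ± 0.155. Pim1, Stat3 and Socs3 are thus the 3 of 5 tested members whose groups did not overlap housed apart, all lower in Xiap-/-, where 1.05% of all tested genes were lower without overlap. Since the rule used that contrast, nothing is read from the count.

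Pim3, the close relative of Pim1, differed between the genotypes with opposite signs in the 2 housings. Its level in co-housed libraries labelled Xiap-/- was 5.80, 5.62, 5.61, 5.80 and 5.62, against 5.83, 5.66, 5.91, 5.97 and 5.90 in co-housed WT libraries, a difference of -0.17 ± 0.10 (limma adjusted p = 0.495). Housed apart, it was 5.67, 5.96, 5.88 and 5.94 in Xiap-/- libraries, against 5.71, 5.47, 5.69, 5.63, 6.08 and 5.81 in WT libraries, a difference of 0.13 ± 0.10. The test of the change between housings, -0.30 ± 0.14, did not pass (limma adjusted p = 0.68), where 1 of 9521 genes (0.0105%) did. With the share of rare genes as a covariate, Pim3 differed by 0.006 ± 0.115 housed apart, and the change between housings was -0.17 ± 0.147.

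Bcl3, which steers NF-kB target genes from within the nucleus, differed between the genotypes by less than its error. It was 5.90, 5.73, 6.24, 5.96 and 6.04 in co-housed libraries labelled Xiap-/-, against 5.94, 5.87, 6.05, 6.06 and 6.15 in co-housed WT libraries. The difference was -0.04 ± 0.10, with an interval of -0.25 to 0.17 (limma adjusted p = 0.908). Housed apart, Bcl3 averaged 5.84 ± 0.09 in Xiap-/- and 5.80 ± 0.23 in WT libraries, and the groups overlapped.

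Il22ra1, Osmr and Fut2 were below the minimum mean for testing and were fitted with no minimum over all 23020 genes. Il22ra1, the epithelial receptor subunit for interleukin 22, was 2.86, 2.58, 2.82, 2.62 and 2.47 in co-housed libraries labelled Xiap-/-, against 2.68, 2.96, 2.85, 2.89 and 2.89 in co-housed WT libraries. The difference of -0.18 ± 0.08 did not pass (limma adjusted p = 0.449), and housed apart the difference was 0.05 ± 0.08. Fut2, which fucosylates epithelial glycans, was 2.84, 3.23, 3.27, 2.90 and 2.90 in co-housed libraries labelled Xiap-/-, against 3.01, 3.20, 3.24, 3.52 and 3.52 in co-housed WT libraries (-0.27 ± 0.13, limma adjusted p = 0.557). Housed apart, Fut2 lay between 2.62 and 2.83 in Xiap-/- libraries and between 2.82 and 3.55 in WT libraries, with an overlap at WT replicate 5 and a difference of -0.37 ± 0.14 (SE). Osmr stayed between -3.28 and -3.21 in all 20 libraries, on the plateau of genes with little or no signal, and no difference could be measured.

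Across the 5 tested members, all 5 differences were below 0 among co-housed mice, where 48.9% of tested genes were. Their median was -0.24, against 0.00 over all tested genes. At the adjusted threshold 0 of the 5 passed, where 3 of 9521 genes (0.0315%) did. At an unadjusted p under 0.05, 3 of the 5 (Pim1, Stat3 and Socs3) were lower, where 6.59% of all tested genes were. Without co-housed WT replicate 3 the count was 1, Pim1, since Stat3 then differed by -0.175 (limma unadjusted p = 0.0759) and Socs3 by -0.229 (0.0605). Housed apart, the contrast used for picking, 3 of the 5 were below 0 with a median of -0.35, where 50.9% of tested genes were below 0 and 0.452% passed.

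**Figure D2:**
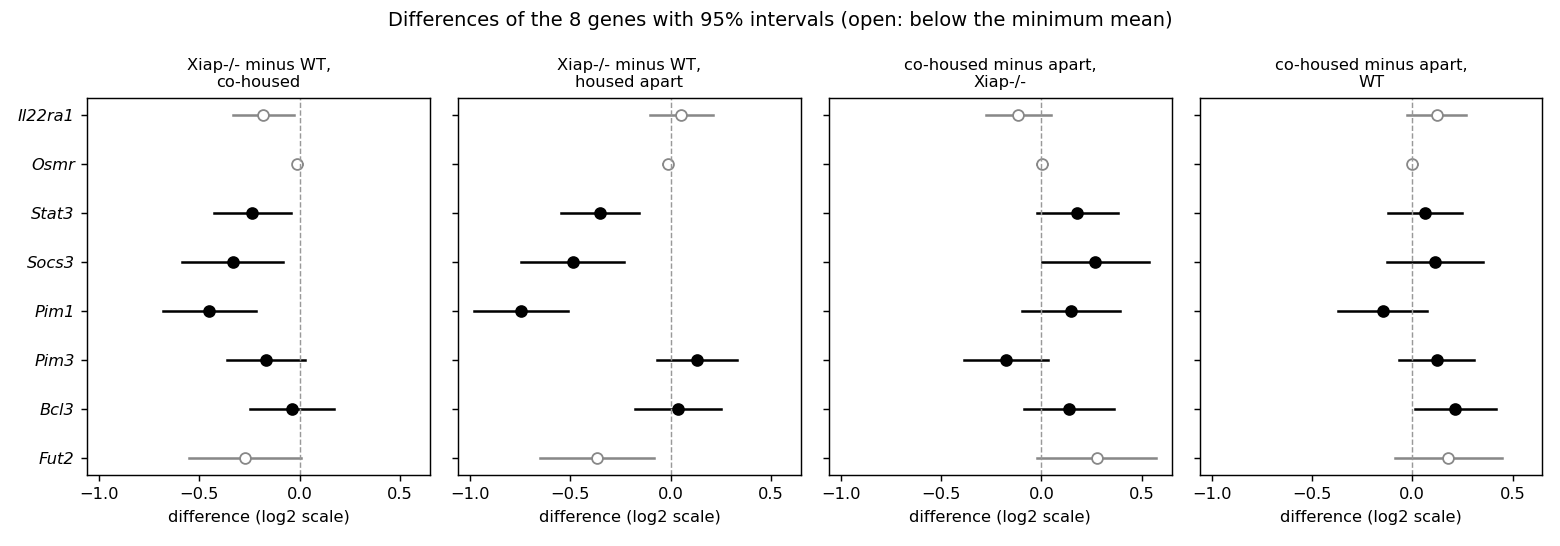
Difference on the log2 scale with its 95% interval for each of the 8 genes in the 4 comparisons; filled points were tested over 9521 genes and open points, below the minimum mean, were fitted over all 23020. Pim1, Stat3 and Socs3 lie left of 0 in both genotype comparisons, while Pim3 lies at -0.17 among co-housed mice and at 0.13 housed apart.

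Co-housing itself moved none of the tested members past the threshold in either genotype. Within Xiap-/-, co-housed minus housed apart, 14 of 9521 genes (0.147%) passed and 0 of the 4 members Stat3, Socs3, Pim3 and Bcl3. Socs3 differed by 0.27 ± 0.13 (limma adjusted p = 0.439) and Stat3 by 0.18 ± 0.10 (0.506), with 4 libraries housed apart and 5 co-housed overlapping in both genes. Pim3 differed by -0.18 ± 0.10 (0.523) and Bcl3 by 0.14 ± 0.11 (0.673). In WT crypts 0 of 9521 genes (0%) passed in limma, and 969 (10.2%) had an unadjusted p under 0.05. The largest member difference there was that of Bcl3, 0.22 ± 0.10 (unadjusted p = 0.0376, adjusted p = 0.473), with levels of 5.87 to 6.15 in co-housed WT libraries and 5.53 to 6.17 in WT libraries housed apart. Stat3 differed by 0.06 ± 0.09, Socs3 by 0.11 ± 0.12 and Pim3 by 0.12 ± 0.09 in WT crypts. These comparisons share their groups with the genotype comparisons above.

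The rest of the pathway was read from lists of ligands, receptors, kinases and STATs, inhibitors and targets, 85 genes in all, of which 71 had values and 50 were tested. None of the 50 passed in any comparison. Of the 12 cytokines listed 3 had values, the highest being Lif at a mean of 1.70 and Il23a at -1.64, and none was tested. Il22 and Il6 are not analysed here. Of the receptors, Il10rb, the partner of Il22ra1, averaged 7.14 ± 0.05 in co-housed libraries labelled Xiap-/- and 7.02 ± 0.11 in co-housed WT libraries (0.12 ± 0.09, limma adjusted p = 0.631). Il6st, the shared subunit for the interleukin 6 family, averaged 4.82 ± 0.10 in co-housed libraries labelled Xiap-/- and 4.91 ± 0.04 in co-housed WT libraries (-0.09 ± 0.09, adjusted p = 0.712). The kinase Jak1 differed by 0.01 ± 0.08 (limma adjusted p = 0.98). The inhibitors Socs2 and Socs4 differed by 0.08 ± 0.09 (adjusted p = 0.776) and 0.02 ± 0.10 (0.949), unlike Socs3 in sign. The 14 tested inhibitors split into 7 above and 7 below 0.

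The antimicrobial and acute phase targets were the list with the widest differences. Its 9 tested genes of 18 listed include Reg3b and Reg3g, lectins secreted against bacteria, and Duox2 with its maturation factor Duoxa2, an epithelial oxidase. Among co-housed mice 8 of the 9 were below 0 in libraries labelled Xiap-/-, with a median of -0.45, and 0 of 9 passed. Reg3b lay between 12.51 and 13.31 in libraries labelled Xiap-/- and between 13.43 and 13.91 in WT libraries, with no overlap (-0.75 ± 0.27, limma adjusted p = 0.28). Reg3g lay between 12.12 and 12.77 in libraries labelled Xiap-/- and between 12.97 and 13.25 in WT libraries, again with no overlap (-0.70 ± 0.31, adjusted p = 0.372). These are the 2 of 9 lower without overlap, where 1.75% of all tested genes were. Housed apart all 9 were below 0 with a median of -1.08, a contrast that Pim1 was picked on. The WT libraries housed apart were not alike. Duox2 was 5.18 and 5.19 in WT replicates 5 and 6 but 6.23 to 6.64 in replicates 1 to 4, against 4.78 to 5.12 in Xiap-/- libraries. Reg3g was 11.80 and 11.73 in these WT replicates, within the Xiap-/- range of 11.13 to 11.81. Reg3b, Saa1, Nos2, Duoxa2 and Tifa were also lowest among WT in replicates 5 and 6, while Tff3 and Ccl20 were not.

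**Figure D3:**
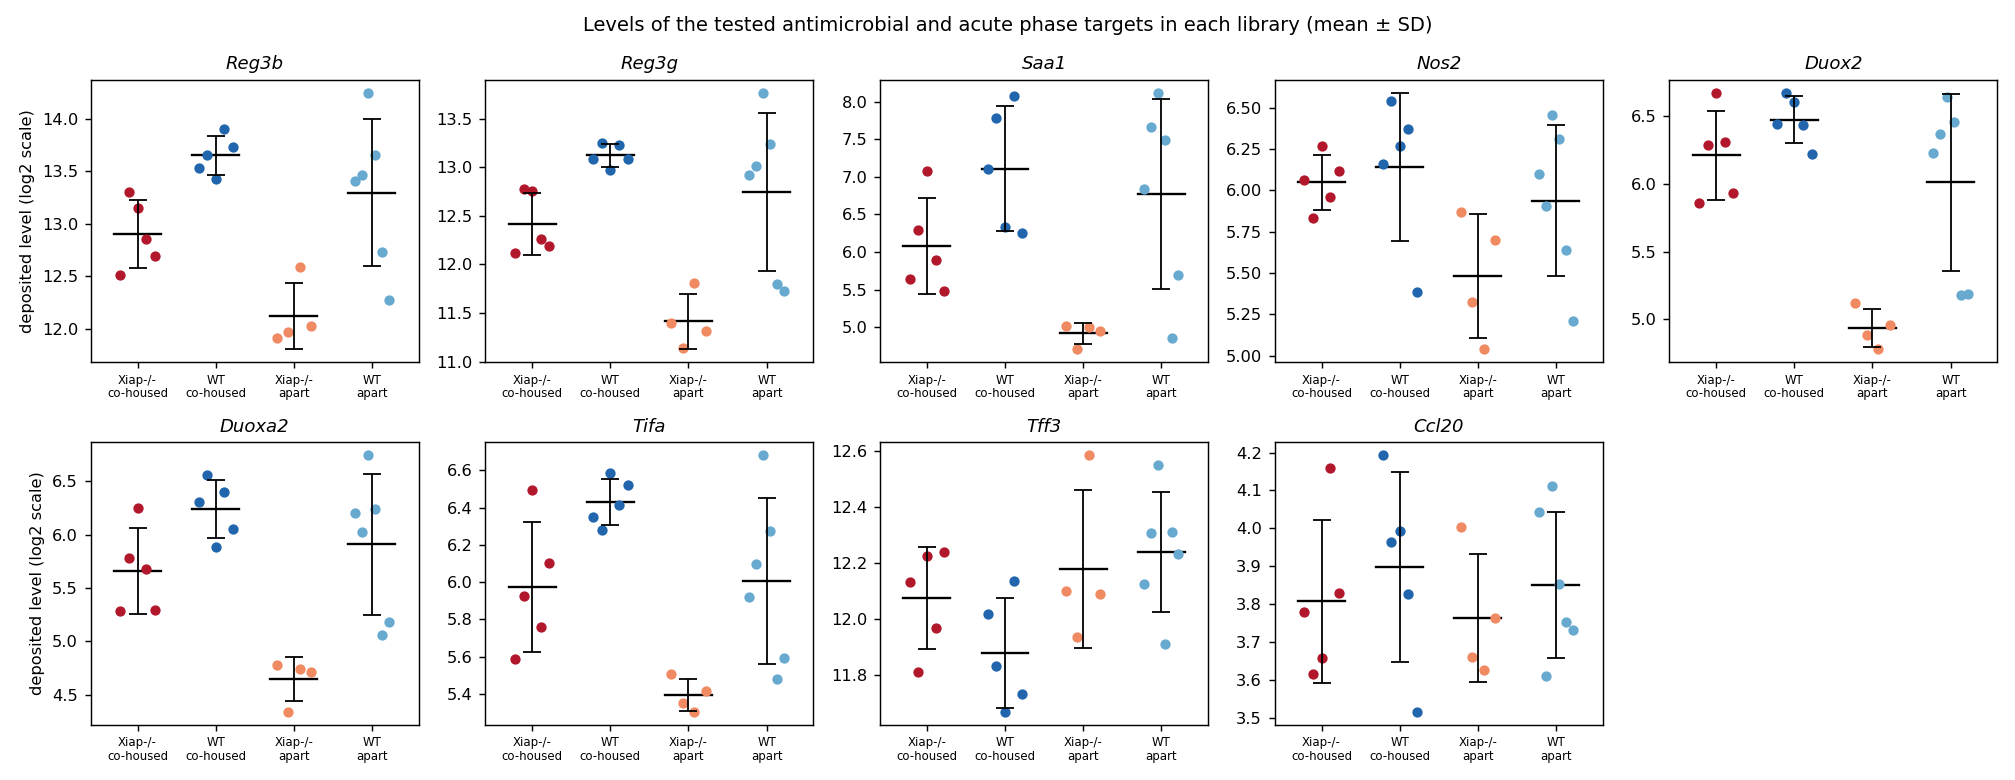
Deposited level (log2 scale) of the 9 tested antimicrobial and acute phase targets in every library, with mean ± SD; panels have their own vertical scales. Reg3b and Reg3g do not overlap between co-housed libraries labelled Xiap-/- and co-housed WT libraries, and Duox2 in co-housed Xiap-/- libraries lies above all 4 Xiap-/- libraries housed apart.

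Within Xiap-/-, 5 of these 9 targets were higher in all 5 co-housed libraries than in all 4 housed apart, where 2.65% of tested genes were. The 5, named after their values were seen, are Duox2, Duoxa2, Reg3g, Saa1 and Tifa, and Saa1 encodes an acute phase protein. Duox2 lay between 5.86 and 6.67 in co-housed Xiap-/- libraries and between 4.78 and 5.12 in Xiap-/- libraries housed apart (1.28 ± 0.27, limma adjusted p = 0.086). Reg3g lay between 12.12 and 12.77 in co-housed Xiap-/- libraries and between 11.13 and 11.81 in those housed apart (1.01 ± 0.33, adjusted p = 0.267). Among the general targets, 14 of 16 tested were above 0 in this comparison, where 49.8% of all tested genes were below 0. The cell cycle gene Ccnd1 differed by 0.49 ± 0.21 (adjusted p = 0.393) and the interferon regulatory factor Irf1 by 0.24 ± 0.10 (0.344). Over all 50 tested pathway genes 9 (18%) were higher without overlap and 0 lower, and their median was 0.08, against 0.00 over all tested genes. Of the 5 tested members, 0 were higher without overlap. The lists were chosen with earlier results of these data known. The share of rare genes averaged 17.1% in Xiap-/- libraries housed apart, against 8.77% in co-housed Xiap-/- libraries. Over all tested genes 14 passed here, 1 with that share as a covariate and 6 without Xiap-/- housed apart replicate 2. The part of that share in the levels of these targets was not tested.

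**Figure D4:**
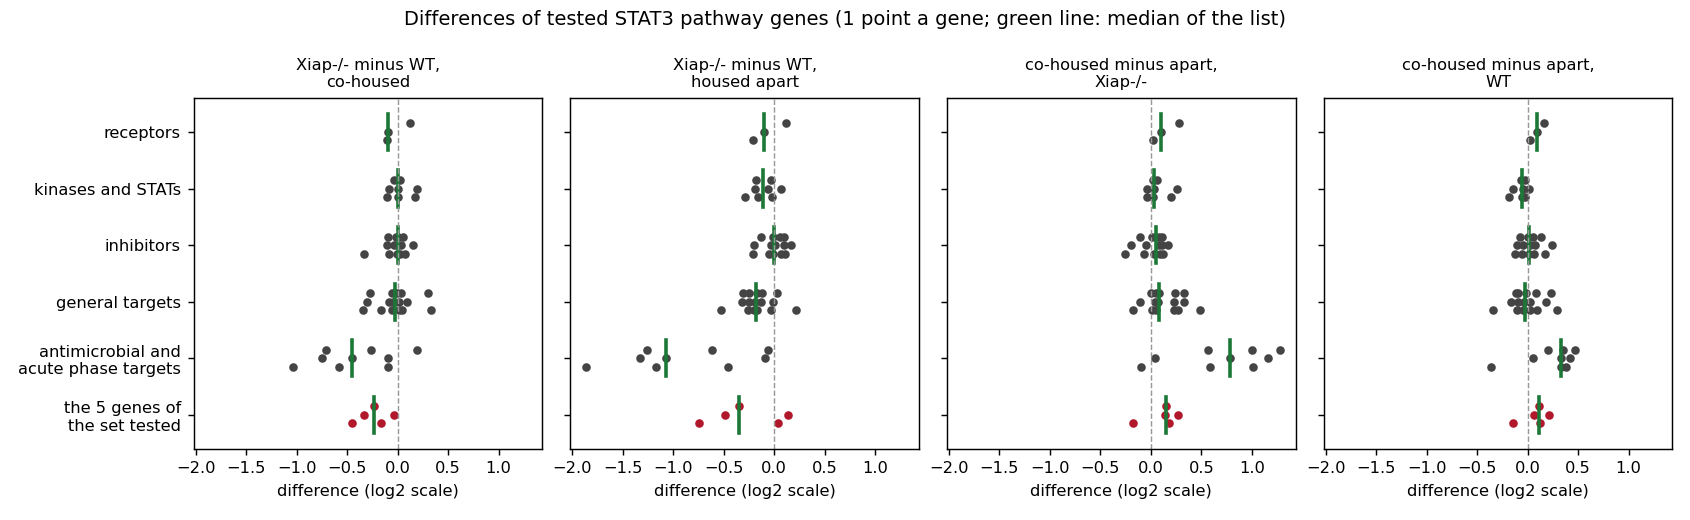
Differences on the log2 scale of the tested genes of each list, 1 point a gene, with the list's median as a green line, in the 4 comparisons; the red points are the 5 tested genes of the set of 8. Antimicrobial and acute phase targets have a median of -0.45 in co-housed Xiap-/- minus WT and of 0.78 in co-housed minus housed apart Xiap-/-. In the same comparisons the medians were -0.09 and 0.10 for receptors, 0.004 and 0.03 for kinases and STATs, and 0.0005 and 0.05 for inhibitors. Single genes lie farther out, with inhibitors from -0.33 to 0.15 in the first. In Xiap-/- minus WT housed apart the medians were -0.11 for receptors, -0.11 for kinases and STATs and -0.0002 for inhibitors.

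Markers of other cells moved with some of these comparisons, and in bulk crypts fewer cells of a type and less RNA per cell cannot be told apart. All 12 tested of 14 markers of T cells and innate lymphoid cells were above 0 in co-housed Xiap-/- minus WT, with a median of 0.22, so their sign is opposite to that of Pim1, Stat3 and Socs3. Their summed level ran from 10.06 to 11.10 in co-housed libraries labelled Xiap-/- and from 9.80 to 10.53 in co-housed WT libraries. Housed apart the sums ran from 10.41 to 11.23 in Xiap-/- and from 10.24 to 11.10 in WT libraries. In co-housed minus housed apart WT all 12 of these markers were below 0, with a median of -0.28, against 9 and -0.05 in Xiap-/-. Other lists shared part of this pattern. In co-housed Xiap-/- minus WT 6 of 7 tested goblet cell markers were above 0 (median 0.13), and so were all 8 crypt base stem cell markers (median 0.08). In co-housed minus housed apart WT all 7 goblet cell markers were below 0 (median -0.18), against 1 of 8 stem cell markers. Of the 12 absorptive enterocyte markers, all 12 were below 0 in co-housed minus housed apart Xiap-/-, with sums of 15.27 to 15.61 in co-housed and 15.44 to 15.95 in Xiap-/- libraries housed apart. Their median was -0.24 there, and in WT 10 of the 12 were below 0 with a median of -0.23. The 3 tested markers of B and plasma cells were above 0 in co-housed minus housed apart Xiap-/-, with sums of 6.05 to 7.00 in co-housed and 5.91 to 6.20 in Xiap-/- libraries housed apart. All 3 were also below 0 in Xiap-/- minus WT housed apart, the sign of Pim1, Stat3 and Socs3 there, with a median of -0.60. Their sums housed apart ran from 5.91 to 6.20 in Xiap-/- libraries and from 5.91 to 7.17 in WT libraries, and Igha, the heavy chain of IgA, averaged 4.62 ± 0.11 in Xiap-/- and 5.49 ± 0.63 in WT libraries (SD, n = 4 and 6). None of these markers passed, and their part in the levels of the 8 genes and of the pathway was not tested.

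Over all 20 libraries, group differences included, the genes most like Pim1 were 4930539E08Rik (Pearson r = 0.859), the cytoskeletal actin Actb (0.851), the endolysosomal channel Tpcn1 (0.846), the ubiquitin protease Usp2 (0.839) and the peptidoglycan-binding protein Pglyrp1 (0.83), of 9520 others. Stat3 came 129th with 0.678 and Socs3 had 0.558, while Bcl3 (-0.113) and Pim3 (-0.298) had no such likeness. The most like Stat3 were the membrane mucin Muc13, the galactosyltransferase B4galt1 and the fucose transporter Slc35c1 (0.803 each), the hyaluronidase Tmem2 (0.793) and the decapping enzyme Dcp2 (0.792), and Socs3 came 34th with 0.738. Libraries correlated at 0.9725 to 0.9955 with each other, and the points share the group differences, so these r are descriptions with no test. Actb itself averaged 13.06 ± 0.17 in Xiap-/- and 13.54 ± 0.20 in WT crypts housed apart (SD). It averaged 13.26 ± 0.13 in co-housed libraries labelled Xiap-/- and 13.41 ± 0.13 in co-housed WT libraries (SD), the same order as Pim1. Actb was named for its r with Pim1 over these same libraries, so the shared order is no separate observation.

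With each group's mean removed, none of the 28 pairs of members passed after adjustment over the pairs. With 20 libraries this does not show that the members vary apart, and Osmr lies on the plateau of genes with little signal. Socs3 and Bcl3 came closest, with r = 0.603 (permutation p = 0.00422, adjusted p = 0.118) and rho = 0.626 (permutation p = 0.00494, adjusted p = 0.138) over 20 libraries, and r = 0.572 without the 2 libraries farthest from the median. Pim1 and Pim3 had r = -0.575 (permutation p = 0.0245, adjusted p = 0.343) and rho = -0.469 (permutation p = 0.0545, adjusted p = 0.591), and r = -0.399 without the 2 farthest. Within groups Pim1 had r = 0.208 with Stat3 and -0.0186 with Socs3, against 0.678 and 0.558 over all libraries with the group means kept.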

How the data were processed

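Levels were deposited by the authors as normalized log2-scale values, 1 per gene and library, between -3.88 and 16.3. The submitters' processing notes name DESeq2 1.18.1 and build GRCm38.p6; the transformation, aligner and counter are not given in the sources used here. Per the labels, barcoded 3' libraries were pooled before amplification. Values lacked counts, so depth, counting intervals and floors are unknown.

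In R 4.3.3 with limma 3.58.1, all 20 libraries entered 1 fit with a mean for each of the 4 groups (variance trend, robust moderation, 16 residual degrees of freedom) for 9521 of 23020 genes with a mean of at least 3.32 (log2 of 10). Tests are two-sided, with Benjamini-Hochberg adjustment over all tested genes at 0.05. Single values (Xiap as planned, Pim1 unplanned) were tested by exact permutation, and correlations within groups with 100000 permutations. The fit was also run on simulated data, with 1 draw for each comparison except the interaction. The simulated noise was normal, independent between genes and of equal spread in all libraries. It therefore does not cover correlated genes or libraries of unequal spread.

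The members and lists were chosen with earlier results of these data known. The genes named are the 8 members, Xiap, any pathway gene past the threshold, the 2 with the highest mean in each list, Reg3b and Reg3g, and the 5 most like Pim1 and Stat3; others are marked or serve as checks, and 1 gene is not reported here. Alternatives changed the minimum mean, moderation, scaling, weights, groups fitted, covariates and libraries. The main fit did not treat replicate numbers as pairs.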

Additional observations from a re-analysis of the deposited data

Results flagged for a closer look

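In 6 of 32 groups of levels looked at (8 genes in 4 groups) a library lay far from its fellows, where chance flags about 1 in 20 groups. Pim1 in co-housed Xiap-/- replicate 3 was 5.522, above 4 libraries within 0.02 of each other. Socs3 in WT housed apart replicate 2 was 4.158, the lowest of its 6 libraries. Bcl3 in Xiap-/- housed apart replicate 1 was 5.709, the lowest of 4. Osmr, which lies on the plateau of genes with little signal, was -3.269 in co-housed Xiap-/- replicate 2, -3.213 in co-housed WT replicate 1 and -3.211 in WT housed apart replicate 3, each above its fellows.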

How the results depend on the processing

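Of the differences of the 5 tested members under the alternatives, 699 kept their sign and side of the threshold, 11 newly passed, 1 no longer passed and 4 changed sign. The 1 was Pim1 housed apart with the depth share as covariate (-0.65, adjusted p = 0.101). Among the members signs changed for Bcl3 alone: it was -0.048 housed apart and 0.0093 in the interaction with that covariate, and with single libraries left out it ranged from -0.105 to 0.0228 among co-housed mice and from -0.0150 to 0.112 housed apart. Xiap among co-housed mice ranged from -0.132 to 0.029, above 0 without Xiap-/- replicate 5.

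The count of genes past the threshold depended strongly on the fit. Genotype in co-housed mice (3 genes) gave 10 with no minimum mean, 0 with a minimum of 5, 159 with array weights and 142 with only its groups fitted. Housing in WT (0) gave 5 with no minimum and 5 with weights. Housing in Xiap-/- (14) gave 9 with a minimum of 5, 23 without trend and robust moderation, 224 with weights, 169 with its own groups and 1 with the covariate. Genotype housed apart (43) gave 27, 65, 385, 12 and 3 under the same settings. The interaction (1) gave 0 with a minimum of 5 and 4 with weights. Counts of members among co-housed mice (0) became 1 with weights and 1 with own groups, and housed apart (1) became 3, 2 and, with the covariate, 0. The cause was not tested.

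With each library left out in turn, genes past the threshold ranged from 1 to 12 for genotype co-housed, 0 to 66 for housing in WT, 2 to 64 for housing in Xiap-/-, 9 (without Xiap-/- replicate 2) to 697 (without WT replicate 5) for genotype housed apart and 1 to 1 for the interaction; members housed apart from 1 to 3, and pairs of members from 0 to 1.

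Replicate numbers were not treated as pairs in the main fit, and whether they mark a batch was not tested. Same-numbered deviations correlated at -0.416 to 0.363 over 27 pairs, and 6 of 20 libraries were most like their own number. The 4 pairs of genotype housed apart had 0.0748 to 0.246, while those of the other comparisons ran from negative to positive. With the replicate block, housing in Xiap-/- gave 189 genes, genotype housed apart 350 with 3 members, and the interaction 10. Co-housed Pim1 stayed at -0.45 (adjusted p = 0.066). Without counts, what depth limits at the level of Osmr, Il22ra1 and Fut2 cannot be stated.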

Other observations

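Among co-housed mice, 6 of the 50 tested pathway genes were lower and 3 higher at a limma unadjusted p under 0.05. Of all tested genes, 6.59% were lower and 5.43% higher at that threshold. The genes named here are some of these pathway genes, lie outside the naming rule and were picked after their values were seen. None passed after adjustment. Cebpb, a transcription factor of the acute phase response, lay between 5.76 and 6.21 in co-housed libraries labelled Xiap-/- and between 5.42 and 5.68 in co-housed WT libraries, opposite in sign to Pim1 (0.30 ± 0.09, limma adjusted p = 0.193). These groups did not overlap, where 1.33% of all tested genes were higher without overlap. Myc, the growth regulator, differed by 0.33 in the same direction (adjusted p = 0.193). Vegfa, a vessel growth factor, differed by -0.30 (0.193), Ptpn11, a phosphatase of cytokine signalling, by -0.33 (0.207) and Nfkbiz, an NF-kB cofactor that epithelial cells make after cytokine signals, by -0.27 (0.271).

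Within Xiap-/-, Hif1a (0.32, limma adjusted p = 0.197), Nfkbiz (0.27, 0.349) and Cebpd (0.33, 0.431) were higher in all 5 co-housed libraries than in all 4 housed apart. These genes too were picked after their values were seen. Ccnd1 was also higher without overlap, which makes 4 of the 16 tested general targets, where 2.65% of all tested genes were. In WT, Junb was the single pathway gene without overlap, at 7.60 to 7.83 in co-housed and 7.83 to 8.30 in libraries housed apart, where 0.221% of all tested genes were lower without overlap.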
